A study of Mus musculus with 336 samples.

Results

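The 33 genes described here mark the endothelium of the liver, the cells that line its blood vessels. They were listed by name, but with earlier results of these data known. All 33 were found among 47632 gene IDs in the liver slice table and 47631 in the short liver table. Of these genes, 20 are expressed by endothelial cells in general (pan-endothelial), 10 mark the specialised endothelium of the sinusoids, and 3 (Vwf, Mmrn1 and Plvap) mark larger vessels, lymphatic vessels or fenestrated endothelium. Liver sinusoids are capillaries whose lining is fenestrated and has little basement membrane, and their endothelial cells take up waste molecules from blood through scavenger receptors. This sinusoidal character is known to fade when liver endothelium is cultured, whereas genes for the junctions, receptors and transcription factors common to all endothelium are less tied to the sinusoid.

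Messenger RNA was sequenced from livers of C57BL/6 mice that were wild type (WT) or Bmal1-/- (KO). Bmal1 encodes a transcription factor central to the circadian clock, and 24 h waves were tested in both genotypes. In the long course, adult liver was cut into slices of about 500 micron, kept on membranes, treated with 100 nM dexamethasone for 15 min to set the phase of the clocks, and sampled every 3 h at 24 times labelled CT00 to CT69. Each genotype had 1 column of FPKM (sequenced fragments scaled for transcript length and library size) per time, shared by 3 runs, so there were 24 WT and 24 KO libraries and no replicate at a single time. In the short course, liver was sampled at T00, T06, T12 and T24 with 3 replicates per genotype and time, 12 WT and 12 KO libraries. Its labels give C57BL/6 and the genotype but no age, carry the same protocol text, and do not say whether T00 came before or after the dexamethasone. The labels do not say that replicates came from separate animals, so p-values measure only the spread among these libraries, which may be technical.

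Summed FPKM per library ran from 7.67e+05 to 2.12e+06 in the slices and from 4.80e+05 to 1.01e+06 in the short course. The files hold no read counts, so depth is unknown. In the slices the WT runs carry lanes L001, L004 and L007 and the KO runs L002, L005 and L008, so genotype and lane cannot be told apart. The slice libraries WT CT66 and CT69 and KO CT09, CT27, CT39 and CT42 had the lowest correlations with the others of their genotype, and in the short course the KO T24 library of replicate 2 stood apart (median r = 0.770). Bulk RNA cannot tell fewer cells of a type from less RNA per cell.

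Promoter sequence is shown for 5 genes whose results are described first or most often below: Kdr and Eng, which followed the WT wave in the slices, Cldn5, which was lower in KO in both courses, Stab1, the most abundant member in the slices, and Clec4g, which fell most in the short course. Each run reads 5′ to 3′ on the gene's strand, from 250 to 11 bases before the RefSeq start (240 bases, GRCm38.p6). Capitals mark matches, on either strand, to CACGTG (the E-box bound by the clock's BMAL1 and CLOCK), GGAAG (the core bound by ETS factors), AACAAT (SOX) or GATAA (GATA).
Kdr: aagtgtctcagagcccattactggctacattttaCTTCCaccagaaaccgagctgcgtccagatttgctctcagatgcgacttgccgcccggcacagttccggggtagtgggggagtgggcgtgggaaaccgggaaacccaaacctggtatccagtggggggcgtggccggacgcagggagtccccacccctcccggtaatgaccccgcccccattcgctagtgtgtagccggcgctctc
Eng: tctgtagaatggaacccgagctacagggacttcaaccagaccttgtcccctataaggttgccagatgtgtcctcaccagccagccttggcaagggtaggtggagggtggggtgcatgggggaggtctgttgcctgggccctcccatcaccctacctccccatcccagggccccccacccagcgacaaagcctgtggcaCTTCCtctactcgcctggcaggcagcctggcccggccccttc
Cldn5: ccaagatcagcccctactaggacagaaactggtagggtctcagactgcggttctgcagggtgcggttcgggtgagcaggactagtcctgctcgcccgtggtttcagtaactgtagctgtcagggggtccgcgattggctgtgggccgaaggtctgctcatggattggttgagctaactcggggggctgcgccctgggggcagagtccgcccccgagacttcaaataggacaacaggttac
Stab1: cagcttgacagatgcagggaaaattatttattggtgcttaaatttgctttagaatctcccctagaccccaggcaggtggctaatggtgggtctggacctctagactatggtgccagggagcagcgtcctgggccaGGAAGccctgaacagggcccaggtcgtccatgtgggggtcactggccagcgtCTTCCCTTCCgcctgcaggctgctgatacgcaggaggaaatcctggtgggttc
Clec4g: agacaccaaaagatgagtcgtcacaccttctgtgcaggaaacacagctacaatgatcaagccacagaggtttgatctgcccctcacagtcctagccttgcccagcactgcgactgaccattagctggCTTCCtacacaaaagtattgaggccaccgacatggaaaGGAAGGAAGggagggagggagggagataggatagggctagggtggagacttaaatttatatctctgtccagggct

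These windows lie at chr5:75978466-75978705 (minus strand) for Kdr, chr2:32646345-32646584 (plus) for Eng, chr16:18776597-18776836 (plus) for Cldn5, chr14:31168652-31168891 (minus) for Stab1 and chr8:3720662-3720901 (minus) for Clec4g. All the capitals in these 5 runs are ETS cores, 1 in Kdr, 1 in Eng, 3 in Stab1 (a pair adjoining) and 3 in Clec4g (a pair overlapping), and the Cldn5 window held none of the 4 motifs. Of the 33 members, 16 had 1 or more RefSeq promoter entries, 18 windows in all. The ETS core was in 14 of these 18 windows and in 62.2% of 32851 windows of the same length. SOX letters were in 3 of 18 (Emcn, Tek and Mmrn1) against 9.23% of all windows, and GATAA in 2 of 18 (Egfl7 and Mmrn1) against 22%. CACGTG was in 0 of 18 and in 5.69% of all windows, which says only that these letters are not in these windows.

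By level, Stab1, a scavenger receptor of sinusoidal endothelium and some macrophages, led the members in the slices. Its FPKM ran from 285 (CT36) through a median of 512 to 1236 (CT18) in WT, and from 59.9 (CT42) through 645 to 1909 (CT30) in KO. Egfl7, a protein secreted by endothelial cells, ran from 240 through 502 to 967 in WT and from 56.6 through 356 to 977 in KO. Cdh5, the VE-cadherin of endothelial junctions, ran from 33.2 through 74.7 to 325 in WT and from 3.93 through 47.4 to 199 in KO. The ranges of the genotypes overlapped for all 3 genes, and in each the lowest KO library lay far below the lowest WT one.

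At the other end, Mmrn1, a multimerin of lymphatic endothelium and platelets, had a median of 0.058 FPKM in WT slices, where it was listed at 0 at CT27, CT54, CT66 and CT69, and 1.82 in KO. Dnase1l3, a secreted DNase of sinusoidal endothelium and macrophages, ran from 0.951 through 1.66 to 3.85 in WT and from 0.918 through 2.05 to 13.1 in KO. Sox7, a transcription factor of early endothelium, ran from 1.38 through 2.45 to 5.41 in WT and from 0.487 through 1.62 to 2.56 in KO. Ptprb, the VE-PTP phosphatase that acts on Tek and Cdh5, had means of 2.93 in WT and 2.22 in KO. The median of the gene means was 21.4 FPKM in WT and 11.9 in KO over the pan-endothelial genes, and 11.9 in WT and 13.96 in KO over the sinusoidal ones. The sinusoidal genes therefore stood below the pan-endothelial ones in WT slices and above them in KO slices, a difference of sets that was not tested.

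The short course asks how the members moved over the 24 h after the first sample. In both genotypes the junction genes Cdh5, Esam and Pecam1 and the sinusoidal gene Lyve1 rose, while 5 of 10 sinusoidal genes and the VEGF receptor Kdr fell. All values tested are log2(FPKM + 1), which understates changes of low genes. The filter of a mean of 1 FPKM was passed by 32 members and not by Mmrn1. Sox7, Sox17 and Nos3 had T00 means under 1 FPKM in both genotypes, and so passed it through later times. At T24 the mean was under 1 FPKM for Sox18 in WT, Kdr and Nos3 in KO, and Vwf in both. Rises of Sox7, Sox17 and Nos3, and the falls to T24 of Sox18 in WT and Kdr in KO, are counted below as a description. From T00 to T24 in WT, 11 members rose (29.8% of 12547 genes rose) and 10 fell (31.5% fell). In KO, 10 rose (31.7% of all genes) and 10 fell (35.8%). The members' shares were thus close to those of all genes. By type, 10 of 20 pan-endothelial genes rose and 4 fell in WT, while 1 of 10 sinusoidal genes rose and 5 fell. The KO counts were 9 up and 4 down of 20, and 1 up and 5 down of 10. The median log2 change was 0.42 in WT and 0.15 in KO for the pan-endothelial genes, -0.46 and -0.79 for the sinusoidal genes, and 0.00 and -0.01 for all genes.

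**Figure D1:**
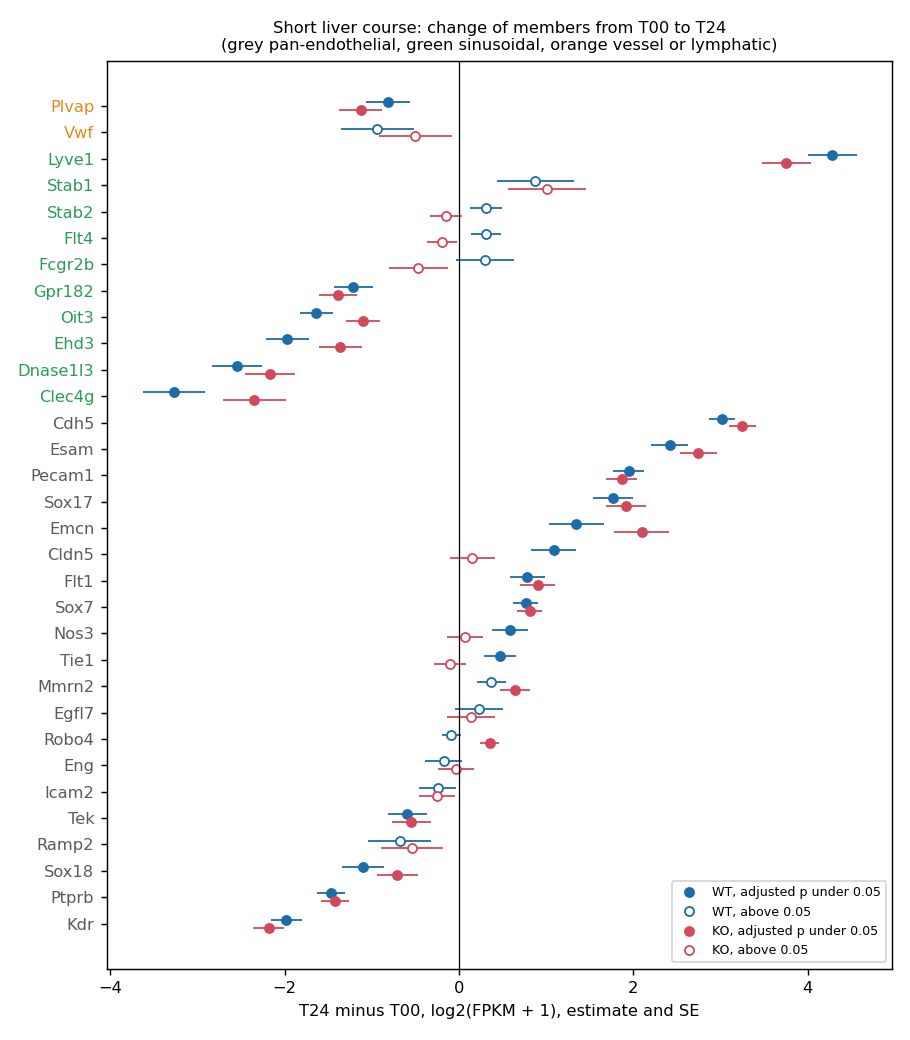
Log2 change from T00 to T24 (log2(FPKM + 1), point with SE) of the 32 members tested in the short course, WT and KO side by side, in the 3 sets. Lyve1 is the 1 sinusoidal gene far to the right (4.28 in WT), and Clec4g lies farthest to the left (-3.27 in WT).

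Among the junction genes, Cdh5 stood at 5.41, 6.56 and 7.89 FPKM in the 3 WT replicates at T00, at 51.3, 53.4 and 61.1 at T06 and at 50.8, 57.7 and 74.5 at T24. In KO it went from 6.73, 5.19 and 6.01 at T00 to 75.8, 65.2 and 55.9 at T24. Every later library of either genotype was above every T00 library. The log2 change from T00 to T24 was 3.02 (SE 0.15, limma adjusted p = 3.8e-11) in WT and 3.25 (adjusted p = 1.41e-11) in KO. Esam, an adhesion molecule of endothelial tight junctions, went from 4.06, 5.31 and 5.37 to 24.3, 29.7 and 38.7 in WT and from 4.42, 3.12 and 3.70 to 34.8, 27.3 and 30.3 in KO, without overlap, a log2 change of 2.41 (adjusted p = 3.94e-08) and 2.75 (6.15e-09). Pecam1, the platelet and endothelial adhesion molecule CD31, rose by 1.95 and 1.87. Emcn, the sialomucin endomucin, rose by 1.34 in WT and 2.09 in KO.

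Ptprb moved the other way. Its FPKM was 4.15, 6.73 and 7.63 at T00 and 1.42, 1.21 and 2.02 at T24 in WT, and 6.00, 4.97 and 5.87 against 1.59, 1.53 and 1.28 in KO. The 2 times did not overlap in either genotype, and the log2 change was -1.47 (limma adjusted p = 4.83e-07) and -1.42 (4.38e-07). Cldn5, the claudin of endothelial tight junctions, rose in WT from 2.26, 4.40 and 4.99 to 6.23, 14.6 and 7.86, by 1.08 (adjusted p = 0.00142). In KO it stood at 4.05, 3.53 and 3.30 at T00 and at 3.31, 4.02 and 5.25 at T24, which overlap, with a log2 change of 0.15 (0.626).

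Of the receptors, Kdr (VEGFR2, the main signalling receptor for VEGF-A) fell early. WT replicates stood at 5.51, 9.17 and 10.7 FPKM at T00, 2.92, 4.55 and 3.97 at T06, 0.714, 0.891 and 0.697 at T12, and 1.55, 1.05 and 1.4 at T24. KO replicates went from 7.13, 5.80 and 6.78 at T00 to 0.890, 0.424 and 0.698 at T24. No library at T06 or later reached the T00 range of its genotype, and the T24 change was -1.98 (adjusted p = 4.82e-08) in WT and -2.19 (1.1e-08) in KO. Flt1 (VEGFR1), which binds VEGF and signals weakly, rose by 0.78 and 0.90, so the 2 VEGF receptors moved in opposite directions. Tek (TIE2, the angiopoietin receptor) fell by 0.60 in WT and by 0.55 in KO, calls that leaving out a replicate could end (WT replicate 2 or 3, KO replicate 2 or 3).

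Several members were highest at T06, and differed in how far they had fallen by T24. Robo4, a guidance receptor of endothelium, stood at 2.32, 3.29 and 3.68 at T00, 9.01, 8.96 and 9.35 at T06 and 2.87, 2.73 and 2.81 at T24 in WT. Sox7 went from 0.397, 0.841 and 0.865 to 4.0, 5.49 and 4.29 and then to 1.76, 1.86 and 1.98. Vwf, the von Willebrand factor of larger vessels and platelets, went from 2.19, 1.11 and 2.12 to 9.98, 5.80 and 6.90 and then to 0.321, 0.725 and 0.307. Nos3, the endothelial nitric oxide synthase, went from 0.803, 0.834 and 0.841 to 2.97, 3.49 and 3.25 and then to 2.27, 1.36 and 1.67. At T24 Robo4 overlapped its T00 range in WT, Vwf lay below it, and Sox7 and Nos3 still lay wholly above it. In each of these 4 genes the T06 range lay wholly above the T00 range in WT, and so it did for 19 of 32 tested members (29.1% of all genes) in WT and 15 of 32 (26.5%) in KO.

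**Figure D2:**
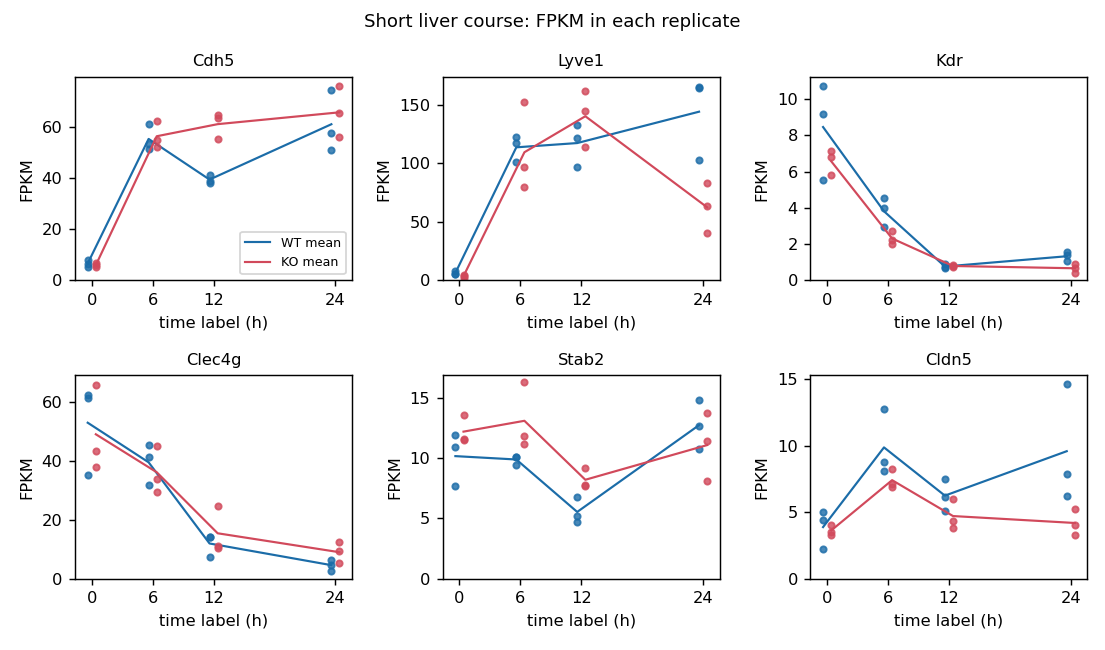
FPKM of Cdh5, Lyve1, Kdr, Clec4g, Stab2 and Cldn5 in every library of the short course (linear axis) against time, WT and KO, 3 replicates each. Cdh5 and Lyve1 are far higher from T06 on, Kdr and Clec4g fall, and Stab2 stays between 4.69 and 16.3.

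The sinusoidal genes divided sharply. Lyve1, a hyaluronan receptor shared by sinusoidal and lymphatic endothelium and some macrophages, stood at 7.97, 5.65 and 5.49 FPKM at T00 and 103, 165 and 164 at T24 in WT, a log2 change of 4.28 (SE 0.28, adjusted p = 1.03e-09). In KO it went from 4.14, 4.60 and 2.20 to 83.1, 40.8 and 63.2, a change of 3.75 (3.74e-09). It did not overlap between the times in either genotype. Clec4g, the C-type lectin LSECtin of sinusoidal endothelium, went from 35.3, 61.3 and 62.5 to 2.78, 6.44 and 4.69 in WT (log2 change -3.27, adjusted p = 5.02e-07) and from 65.96, 37.8 and 43.6 to 5.32, 9.37 and 12.4 in KO (-2.35, 1.36e-05). All T24 libraries were below all T00 libraries.

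Dnase1l3 went from 7.58, 13.5 and 15.3 to 0.850, 1.19 and 1.48 in WT and from 13.4, 9.46 and 11.97 to 1.401, 1.60 and 2.41 in KO, again without overlap, a log2 change of -2.55 and -2.17 (adjusted p = 6.37e-07 and 2.43e-06). Ehd3, an endocytic recycling protein, fell by 1.97 in WT and by 1.36 in KO, Oit3, a secreted protein of sinusoidal endothelium, fell by 1.64 and by 1.10, and Gpr182, an atypical chemokine receptor, fell by 1.21 and by 1.39. The scavenger receptors Stab1 and Stab2 and the Fc receptor Fcgr2b did not pass the test. Stab1 had the largest change among the sinusoidal genes that missed, 0.88 (adjusted p = 0.0967) in WT and 1.01 (0.0535) in KO; Stab2 changed by 0.31 and -0.15 and Fcgr2b by 0.30 and -0.47. Among the other genes that missed, Vwf had the largest change in WT, -0.94 (0.0603), and Ramp2, the partner of the adrenomedullin receptor, had -0.54 (0.193) in KO.

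Over all 4 times, 26 of 32 members changed in WT (64.4% of all genes) and 28 in KO (72.2%). Transcription factors of the SOXF group went separate ways. Sox17 rose by 1.77 in WT and 1.92 in KO and Sox7 by 0.77 and 0.81, while Sox18 fell by 1.10 and by 0.71. The rises of Sox17 and Sox7 are a description, since both passed the filter through the times where they are high. So is the fall of Sox18 in WT, where its T24 mean was under 1 FPKM. Plvap, the protein of fenestral diaphragms, fell by 0.82 in WT and by 1.13 in KO. The WT calls of Plvap and Nos3 at T24 were lost without WT replicate 1, that of Tie1, the orphan receptor of the angiopoietin system, without any 1 of the WT replicates, and the KO call of Sox18 without KO replicate 1 or 3.

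Other endothelial lists were counted over the same hours, beside the 29.8% of all genes that rose and 31.5% that fell in WT and the 31.7% and 35.8% in KO. Of 10 tested genes of activated endothelium, 9 rose and 0 fell from T00 to T24 in both genotypes. They were led by Procr, the endothelial protein C receptor (5.26 in WT and 6.69 in KO), Thbd, thrombomodulin (4.58 and 4.55), and Esm1, endocan (4.19 and 4.70). Of 7 VEGF and angiopoietin genes, 3 rose and 1 fell in WT and 5 rose and 1 fell in KO, with Pgf (placental growth factor) up 3.48 and 3.56, Angpt2 up 1.97 and 2.40 and Nrp2 up 1.73 and 1.64. All 4 tested Notch pathway genes rose in WT and 3 of 4 in KO, led by the ligand Jag1 (1.87 and 3.00). Of 12 endothelial transcription factors, 6 rose in WT, and 6 rose and 3 fell in KO, with Ets2 up 2.55 and 2.27 and Ets1 up 1.54 and 2.28. Of 8 angiocrine genes, 3 rose and 3 fell in WT and 4 rose and 2 fell in KO; Bmp6, an iron-sensing signal of sinusoidal endothelium, rose by 1.82 and 2.80, and the chemokine Cxcl12 fell by 2.54 and by 2.25. The angiocrine counts were thus near the shares of all genes. Of the 10 activated-endothelium genes, 5 in WT and 6 in KO had a T00 mean under 1 FPKM, Procr and Esm1 in both, and so passed the filter through later times. Pgf, Angpt2 and Jag1 did as well. In the other lists the T00 mean was under 1 FPKM in both genotypes for Gata2, Mef2c, Foxf1 and Ackr3. It was so in WT alone for Hgf, and in KO alone for Vegfc, Notch4, Bmp6 and Cxcr4. Any rises of these genes in those genotypes are counted as a description.

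Markers of other cell types moved over the same hours. Summed macrophage markers (12 genes, all above 0) ran from 174 to 227 FPKM at T00 and 238 to 415 at T24 in WT, and from 148 to 166 and 188 to 201 in KO. Of 12 tested, 5 rose and 4 fell in WT and 4 rose and 3 fell in KO. Of 10 hepatocyte markers, 6 fell and 1 rose in WT, and 9 fell and 0 rose in KO. The marker that rose in WT was Alb (9.04), which was listed at 0 in all 3 WT T00 libraries. Whether those entries are measured values was not tested, so this rise is a description. All 4 biliary markers rose in both genotypes. In each genotype 2 of them had a T00 mean under 1 FPKM (Krt7 and Sox9 in WT, Krt7 and Epcam in KO). The rises of these genes are a description. The part of these cells in the members' changes was not tested.

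Between genotypes, the short course showed small differences of mean level over the 4 times. In KO, 1 member was higher (7.75% of all genes were) and 5 were lower (11%). Plvap ran from 3.69 through a median of 9.97 to 19.9 FPKM in WT and from 5.06 through 17.99 to 24.4 in KO, with a log2 difference of 0.51 (SE 0.13, limma adjusted p = 0.00743). Nos3 ran from 0.803 through 1.58 to 3.49 in WT and from 0.382 through 1.01 to 2.62 in KO, a difference of -0.41 (0.00941). Kdr was lower by -0.32 (0.0185), Icam2, a leukocyte ligand at endothelial junctions, by -0.35 (0.0263), Cldn5 by -0.42 (0.0285) and Lyve1 by -0.44 (0.036). The genotypes overlapped over the course as a whole in all 6 genes. Of those that missed, Fcgr2b (-0.38, 0.121) and Emcn (0.38, 0.102) had the largest differences. Of these 6 calls, 1 was left without KO replicate 3 (Nos3) or WT replicate 3 (Plvap), 2 without KO replicate 2 and 3 without WT replicate 2. With 1 mean per genotype and replicate number, a fit for the case that the 4 times of a number share an animal, which the labels leave unsaid, Plvap was the 1 call left.

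Taken time by time, most calls were at T24, where 5 members were lower in KO (10.4% of all genes) and 0 were higher. Calls over all genes were also most frequent at T24, 2241 of 12547 against 558 at T00, 210 at T06 and 301 at T12. Lyve1 had no overlap (103, 165 and 164 in WT against 83.1, 40.8 and 63.2 in KO) and differed by -1.22 (SE 0.28, adjusted p = 0.00725). Flt4 (VEGFR3, the receptor for VEGF-C) stood at 5.29, 5.51 and 6.01 in WT and 3.70, 2.76 and 2.75 in KO, again without overlap, a difference of -0.71 (0.00913). Cldn5 differed by -0.96 (0.0165), from 6.23, 14.6 and 7.86 to 3.31, 4.02 and 5.25, and Nos3 by -0.77 (0.0172), from 2.27, 1.36 and 1.67 to 0.451, 0.974 and 0.441, both also without overlap. Tie1 differed by -0.56 (0.0405). Fcgr2b (-0.96, 0.0542) and Clec4g (0.82) missed. Without the KO T24 library of replicate 2, which stood apart, 2 members were lower, and Lyve1 and Cldn5 were among the calls lost; without WT replicate 3 or KO replicate 3 there were 2, and without WT replicate 1 or 2 or KO replicate 2 there were 3.

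At T00 and T06 no member passed limma's test (0 of 32 at each, 3 of 32 at an unadjusted p under 0.05 at each), where 4.45% and 1.67% of all genes did. At T12, Cdh5 alone was higher in KO (1.01% of all genes were higher): 63.4, 64.7 and 55.04 against 38.98, 37.98 and 41.2 in WT, without overlap, a difference of 0.62 (adjusted p = 0.037). That call was lost without any 1 of the 6 replicates (WT or KO 1, 2 or 3). The interaction of genotype and time passed for 0 of 32 members (1.75% of all genes), and 5 had an unadjusted p under 0.05. Cldn5 (0.392) and Lyve1 (0.132) were among those that missed. With the replicate number within genotype as a block, 2 members passed the interaction, Flt4 (adjusted p = 0.0386) and Cdh5 (0.0454), as did 2.93% of all genes, so whether any member's change over time was called different between WT and KO depended on the block.

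In the slices the question was whether the members follow a 24 h wave and a slow trend over 3 days. A wave of 24 h with a linear trend was fitted to each genotype; amplitude is measured from the mean to the crest of that wave, in log2(FPKM + 1) units. In WT, 9 of 32 tested members passed, against 1.98% of 14631 genes. They were the junction genes Cdh5, Pecam1, Icam2 and Ptprb, the receptors Kdr and Eng (endoglin, a co-receptor for BMP9), the transcription factor Sox7, and the sinusoidal genes Stab2 (the main hyaluronan scavenger receptor) and Ehd3. All 9 peaked between 17.1 and 17.9 h of the cycle.

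Cdh5 had the largest amplitude, 0.74 (SE 0.14, peak 17.5 h, limma adjusted p = 0.0327). Its mean over the times from 15 to 21 h was 102, 125 and 223 FPKM on days 1, 2 and 3, and over the times from 3 to 9 h it was 41.4, 54.98 and 58.5. Stab2 (0.68, peak 17.1 h, 0.0361) stood at 51.1, 50.4 and 64.0 against 18.5, 28.3 and 26.3. Kdr (0.50, 17.5 h, 0.0327) stood at 8.31, 8.11 and 12.5 against 3.39, 5.12 and 4.88, and Eng (0.46, 17.8 h, 0.0327) at 69.5, 67.9 and 98.9 against 35.6, 41.7 and 50.2. In all 4 genes each of the 3 days had the higher mean in the later window. These windows were chosen after the fitted peaks were seen. By the same count, 25 of 32 tested members were higher in the later window on all 3 days, as were 24% of all genes.

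**Figure D3:**
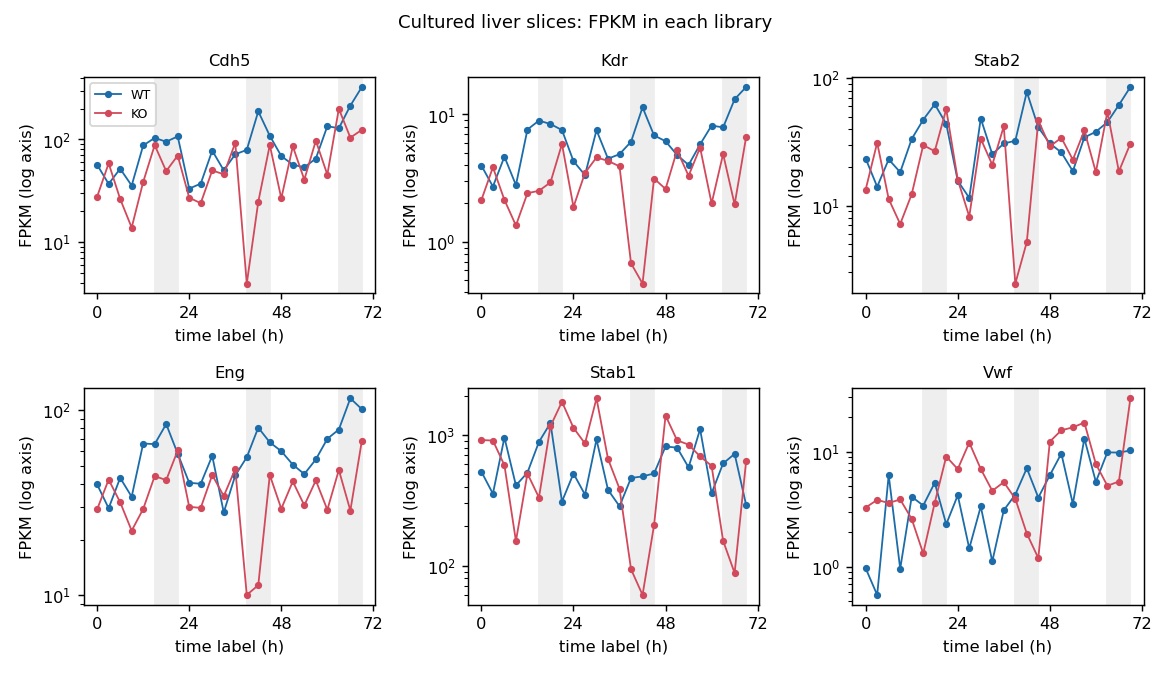
FPKM (log axis) of Cdh5, Kdr, Stab2, Eng, Stab1 and Vwf in every slice library against time, WT and KO, with grey bands over 15 to 21 h of each day. WT Cdh5, Kdr, Stab2 and Eng are high inside the bands on each day, their KO values dip at CT39 and CT42, and Vwf climbs over the 3 days.

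Of the members that missed, Sox17 (0.53, adjusted p = 0.0815) and Tek (0.49, 0.0556) had the largest amplitudes. Of the 32 members, 30 had fitted peaks between 15 and 21 h, as did 36.9% of all genes and 83.4% of the genes that passed. All 20 pan-endothelial genes did, with a mean peak at 17.6 h and a median amplitude of 0.42. Of the sinusoidal genes 9 of 10 did, with a mean peak at 18.1 h and a median amplitude of 0.26, against 0.12 for all genes. The exception was Stab1, whose WT amplitude was 0.06. Most of these waves did not pass (7 of 20 pan-endothelial and 2 of 10 sinusoidal genes did), and whether the sets differ in peak or amplitude was not tested.

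These calls sit close to the threshold. Leaving out any single library among CT66, CT57, CT54, CT51, CT42, CT33, CT27, CT18 and CT15 left 0 members and 0 genes of any kind past it, and so did leaving out day 1 or day 3, while without CT06 or CT30 there were 14. The amplitude of Cdh5 moved only from 0.67 to 0.87 over all settings tried.

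Macrophage markers rose and fell at the same hours. Of 11 tested in WT slices, 7 passed, with a mean peak at 17.3 h and a median amplitude of 0.88, larger than that of the members. Their summed FPKM (12 genes, all above 0) ran from 219 through 1073 to 5828 in WT and from 77.4 through 184 to 536 in KO. The part of macrophages in the members' wave was not tested. Some members are shared with macrophages, such as Stab1, Lyve1 and Fcgr2b, and these did not themselves pass for a wave in WT. Of 10 hepatocyte markers 0 passed and their mean peak was at 5.4 h. Of the endothelial transcription factors, 2 of 16 passed, Ets1 (0.39, 18.1 h) and Fli1 (0.42, 18.1 h), which both bind the ETS core. Of the VEGF and angiopoietin genes 1 of 8 passed, Vegfc, the ligand of Flt4 (0.40, 17.7 h), and the Notch, angiocrine and activated-endothelium lists had 0 of 6, 0 of 8 and 0 of 10.

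In KO slices, 2 of 33 members passed, where 11.2% of 14224 genes did. Vwf had an amplitude of 0.81 (SE 0.19) with a peak at 3.8 h (limma adjusted p = 0.0252), and Stab1 had 1.19 (SE 0.32) with a peak at 3.1 h (0.0486). For Stab1 the mean over 3 to 9 h was 550, 1143 and 814 FPKM on days 1 to 3 and over 15 to 21 h it was 1099, 120 and 292, so day 1 ran against days 2 and 3. Cldn5 (0.85, 0.144) and Egfl7 (0.75, 0.122) had the largest amplitudes among those that missed. Of the 33, 25 had fitted peaks between 1 and 7 h, as did 42.1% of all genes. None (0 of 33) was higher over 15 to 21 h than over 3 to 9 h on all 3 days, against 17.9% of all genes.

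**Figure D4:**
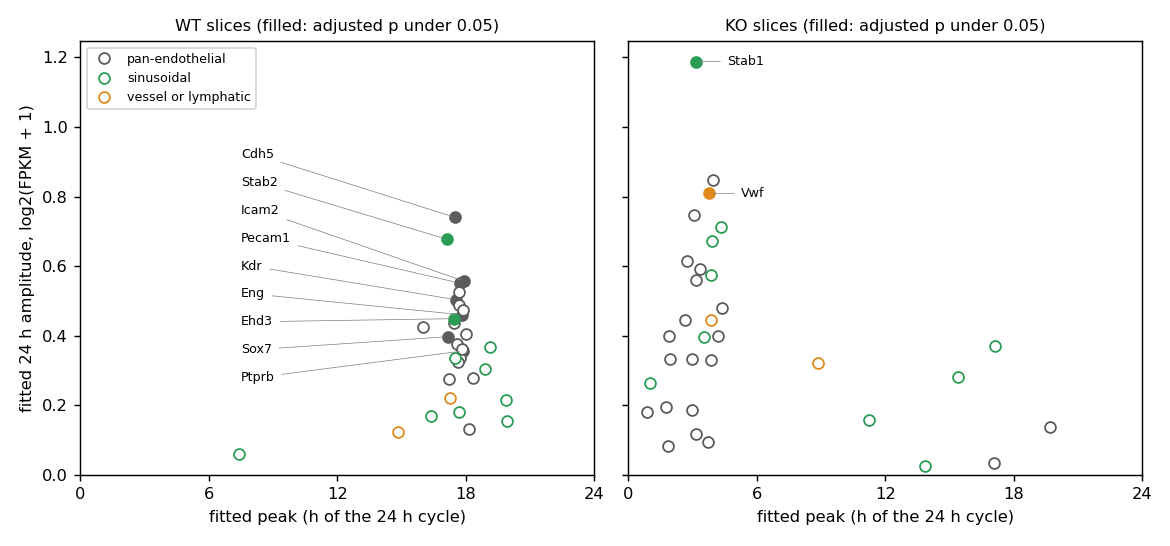
Fitted amplitude (log2(FPKM + 1)) against fitted peak (hours of the 24 h cycle) for each member in WT and KO slices, with colour for the set and filled points for genes that passed. WT points lie in a column at 16 to 20 h apart from Stab1 and a vessel gene, and 25 of the 33 KO points lie between 1 and 7 h.

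Low KO values on day 2 came from few libraries. Of the 33 members, the lowest KO value of Cdh5 (3.93), Eng (10.0) and Stab2 (2.44) was at CT39, and that of Kdr (0.470), Cldn5 (1.21) and Stab1 (59.9) at CT42, both among the libraries with low correlations. Without the 4 such KO libraries, no member passed in KO, and without CT15, CT27 or CT42 alone none did either.

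The test of the difference between the 2 genotypes' waves passed for 2 of 33 members (4.13% of all genes). Kdr had a difference wave of 0.81 (SE 0.20, adjusted p = 0.04) and Vwf one of 1.02 (SE 0.27, just under 0.05). Kdr over 15 to 21 h stood at 3.77, 1.43 and 4.50 in KO against 2.44, 4.13 and 4.68 over 3 to 9 h, a pattern with no common direction over the 3 days. At an unadjusted p under 0.05 there were 23 of 33. Of those that missed, Cldn5 (1.18, 0.0905) and Stab1 (1.16, 0.125) had the largest difference waves. The macrophage list had 8 of 11 past the threshold. Neither call of a member survived leaving out day 2 or day 3, and 0 members passed without CT03, CT12, CT15, CT27, CT33, CT39, CT42, CT54, CT57 or CT66.

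Over the 3 days, 8 of 32 members climbed in WT slices, where 9.84% of all genes did, and 0 fell. Vwf had the steepest slope, from 0.566 FPKM at CT03 through a median of 4.12 to 13.1 at CT57, 0.68 log2 units per day (SE 0.15, limma adjusted p = 0.00321). Esam ran from 42.4 (CT09) through 80.0 to 194 (CT66), 0.35 per day (0.00321). Gpr182 ran from 2.16 (CT09) through 4.57 to 19.9 (CT66), 0.32 per day (0.0149), and was the 1 sinusoidal gene among the 8. The others were Cdh5 (0.40), Mmrn2, a multimerin of the vessel matrix (0.38), Tie1 (0.33), Eng (0.24) and Kdr (0.24). In 7 of the 8 (all but Vwf) the highest WT value was at CT66 or CT69. Sox17 (0.32, 0.0531) and Robo4 (0.29, 0.054) missed.

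All 20 pan-endothelial genes had positive slopes in WT, with a median of 0.24 per day, and 7 of 10 sinusoidal genes did, with a median of 0.17, against -0.01 for all genes. Lyve1 (-0.17) and Clec4g (-0.10) were among the 3 with negative slopes. The 11 tested macrophage markers all rose, with a median of 0.85 per day, and their part in the members' slopes was not tested. Without day 3 no member passed, without CT66 and CT69 together 2 did, and without CT69 alone 3 did, while without CT06 or CT12 there were 13.

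In KO slices 1 of 33 members climbed (1.96% of all genes). It was again Vwf, from 1.18 (CT45) through 5.25 to 29.3 (CT69), 0.76 per day (SE 0.15, adjusted p = 0.00731), a call lost without day 1 or day 3. The pan-endothelial genes had a median slope of 0.14 and the sinusoidal genes of 0.10. No member's slope differed between genotypes by limma's test (0 of 33, also 0 at an unadjusted p under 0.05), where 0.0687% of all genes differed.

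By mean level over the slice course, KO libraries as deposited were shifted down: the median difference of all genes was -0.34 (log2), and about 0 after scaling each library by its median ratio to the others. Members are therefore read against that shift. With a log2 difference of at least 1 required, 3 members were lower in KO (4.05% of 14566 genes) and 1, Mmrn1, was higher (1.18%). Cldn5 ran from 21.2 through 55.6 to 112 FPKM in WT and from 1.21 through 21.6 to 87.2 in KO, a difference of -1.42 (SE 0.24, limma adjusted p = 2.09e-06), or -1.08 relative to the median gene. Icam2 ran from 8.49 through 19.8 to 50.8 in WT and from 2.47 through 9.30 to 16.03 in KO (-1.02, 7.02e-08, relative -0.68). Sox17 ran from 11.3 through 27.7 to 77.6 in WT and from 1.28 through 16.9 to 31.7 in KO (-1.01, 0.000109, relative -0.67). The genotypes overlapped in all 3 genes, though the KO median was lower in each.

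Mmrn1 ran from 0 through 0.058 to 1.29 in WT and from 0.101 through 1.82 to 8.0 in KO, a difference of 1.21. It passed the filter only through KO (mean 2.28 FPKM against 0.251 in WT), the group where it is high, so its difference is given as a description and not as a test. Kdr (-0.87) and Ramp2 (-0.80) had the largest differences short of the limit of size. After the median-ratio scaling, Cldn5 (-1.04) and Mmrn1 (1.35) kept the limit and Icam2 (-0.65) and Sox17 (-0.64) did not.

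**Figure D5:**
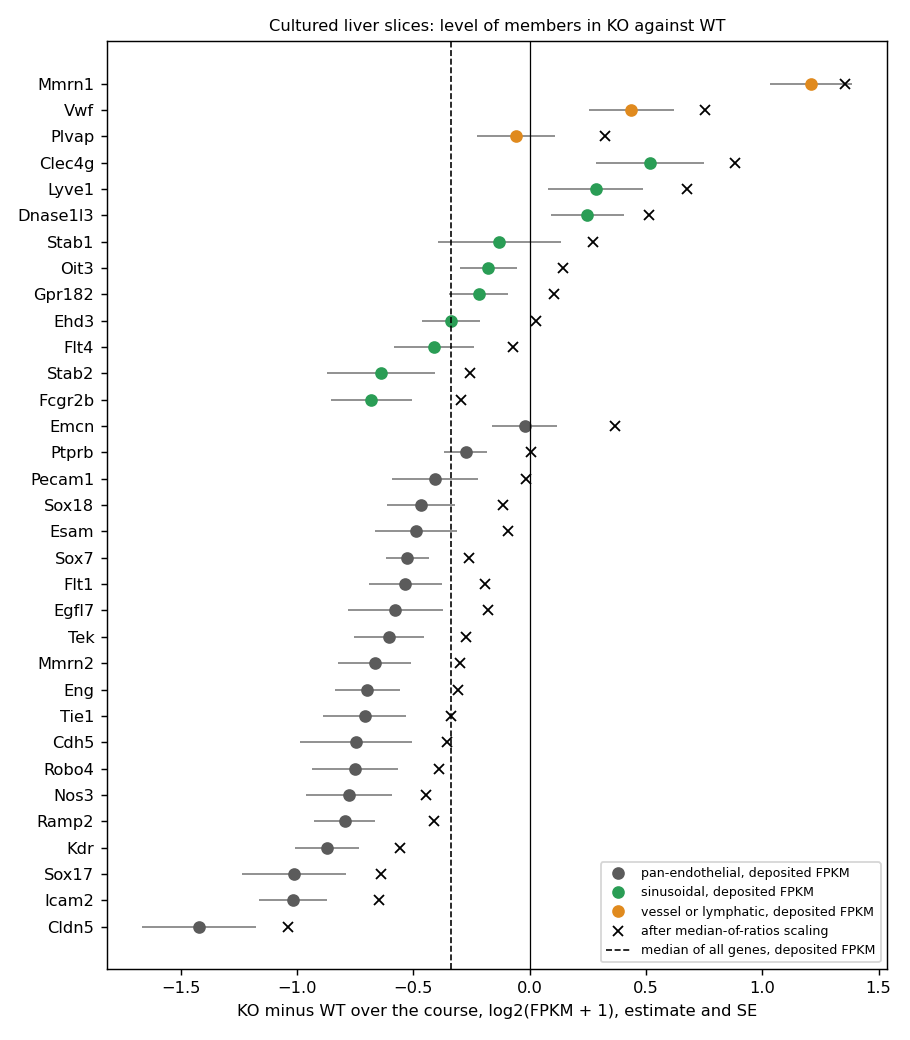
Difference of mean log2(FPKM + 1), KO minus WT, of each member over the slice course with its SE, by set, with the median of all genes (-0.34) as a dashed line and crosses for values after median-of-ratios scaling. Most pan-endothelial genes lie below the line and most sinusoidal genes above it.

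The estimates of 18 of 20 pan-endothelial genes lay below the median of all genes, with a median of -0.34 relative to it, and those of 3 of 10 sinusoidal genes did, with a median of 0.14. All 3 vessel or lymphatic genes lay above. After the median-ratio scaling 18 of 20 and 3 of 10 estimates were negative, with medians of -0.30 and 0.12. By an adjusted p under 0.05 with no limit of size, 7 of the 20 pan-endothelial genes were then lower in KO and 1 was higher, and 0 of the 10 sinusoidal genes were lower and 3 were higher. In all, 7 members (Ehd3, Emcn, Gpr182, Oit3, Plvap, Ptprb and Stab1) changed sign between the 2 scalings. Of the sinusoidal genes, Clec4g was higher in KO on both scales (0.52 as deposited, 0.88 scaled). Its median was 11.6 FPKM in KO and 8.80 in WT. Its highest KO values, 79.4 at CT09 and 48.3 at CT39, came from libraries with low correlations. Macrophage markers were lower in KO as well, 10 of 11 with a median of -2.04, and their part in these differences was not tested. Without CT06, CT42 or CT66, 2 members were called in place of 4.

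Of the 5 members lower in KO in the short course, 4 (Cldn5, Icam2, Kdr and Nos3) were also lower in the slices by an adjusted p under 0.05 with no limit of size. As deposited, 23 of 33 members (69.7%) were, so 4 of 5 (80%) is near the share of the members as a whole. After the median-ratio scaling 7 of 33 (21.2%) were, these 4 among them. Lyve1, the fifth, had a positive estimate in the slices, 0.28 as deposited (adjusted p = 0.209) and 0.67 after scaling (0.00449). The slices and the short course are separate tables and their levels were not compared by a test. The sinusoidal median stood at 13.2 FPKM in WT and 11.9 in KO at T00 of the short course and at 5.12 and 7.58 at T24, while the pan-endothelial median was 3.49 and 3.17 at T00 and 4.34 and 3.75 at T24.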

How the data were processed

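Per the submitters' processing notes, the authors used TopHat2 2.1.0, Cuffdiff and the GRCm38 build on single-end reads of 50 bases. The deposited tables hold FPKM per gene; the scaling of libraries and the release of the annotation were not found in the labels or headers. The fibroblast table was not used here, and 0 per-sample columns of the liver tables were left unused. Runs of a library share 1 column.

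Genes below a mean of 1 FPKM in a comparison were dropped, and log2(FPKM + 1) was fitted in R 4.3.3 by limma 3.58.1 with a variance trend and Benjamini-Hochberg adjustment over all genes tested, threshold 0.05. All tests were two-sided. Rhythms were F tests on a 24 h cosine and sine beside a linear trend; genotype differences of rhythm and trend were interaction terms. Slice genotype calls also needed a log2 difference of 1. The short course was fitted with 1 mean per genotype and time. The fits were also run on simulated data with less spread than observed. These held a planted wave in WT slices, a trend shared by both genotypes, a change at T24 and genotype differences of level. No wave in KO, difference of trend or interaction of genotype and time in the short course was planted, so recovery of those was not checked. Alternatives were a pseudocount of 0.1, no filter, median-of-ratios scaling, other trend terms, omitted days, libraries or replicates, and replicate blocks. The library KO T24 of replicate 2 was left out as an alternative chosen after the data were seen.

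Values are named for the 3 members of smallest adjusted p in each direction, the 2 of largest size that missed, and the 3 highest and 3 lowest by level; other names were chosen after their values were seen. The members and lists were chosen with earlier results of these data known. In 1 run of KO replicate 3 the title gives T00 and another label T06; the column named T00 was used. Gene IDs were matched to symbols and positions by GENCODE, and promoters come from RefSeq (GRCm38.p6). Depth is unknown, so no counting interval is given.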

Additional observations from a re-analysis of the deposited data

Results flagged for a closer look

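The 24 h wave of Kdr differed between WT and KO slices by a test of the difference itself (limma interaction, adjusted p = 0.04; difference wave 0.81, SE 0.20). That of Vwf also did (adjusted p = 0.05, just under the threshold; difference wave 1.02, SE 0.27). Kdr passed in WT alone and Vwf in KO alone when each genotype was fitted separately. No group had from 4 to 10 samples, so single samples were not screened for distance from the rest.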

How the results depend on the processing

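Over 79 member calls and 1438 alternative values, 1077 kept the call, 361 lost it and 0 reversed. A reversal meant a change of sign. The values of the rhythm comparisons are amplitudes, which are never negative, so for them a reversal could not occur. FPKM without counts leave the precision of low members unknown. The WT rhythm count of 9 became 0 without the filter, without day 1 or without day 3, 3 without day 2, 1 without the low-correlation libraries and 17 with day as a factor; leaving out 1 time point gave 0 to 14. The KO rhythm count of 2 became 0 without the filter, day 2, day 3 or the low-correlation libraries, 1 with no trend term or with day as a factor and 11 without day 1 (0 to 4 leaving out 1 time point). The difference of rhythms, 2, became 0 with a pseudocount of 0.1, without the filter, day 2, day 3 or the low-correlation libraries, 6 without day 1, 7 with no trend term and 12 with day as a factor (0 to 9). The cause of these moves was not tested. The WT trend count of 8 became 0 without day 3, 2 without the low-correlation libraries and 5 for day 3 minus day 1 (3 to 13). The KO trend count of 1 became 0 without day 1 or day 3 and 2 without the low-correlation libraries (1 to 1). The slice genotype count of 4 became 2 with median-of-ratios scaling or without the low-correlation libraries and 26 with no limit of size (2 to 4). The short-course genotype count of 6 became 3 without the filter and 1 with 1 mean per genotype and replicate number, and that at T12 became 0 without the filter; that at T24 became 2 without the KO T24 library of replicate 2. Leaving out 1 replicate gave 1 to 7 for genotype, 0 to 1 at T00, T06 and T12, and 2 to 6 at T24. It gave 24 to 27 for WT time and 21 to 28 for KO time. For T24 against T00 it gave 18 to 22 in WT and 18 to 21 in KO, and for the interaction 0. In the slices, leaving out 1 time point gave 0 for the difference of trends.

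Whether the replicate numbers pair the samples was not settled, since correlations this weak cannot decide it. Libraries of the same number correlated between -0.02 and 0.11 in WT, -0.08 and 0.22 in KO, and -0.11 and 0.14 across genotypes. The median was 0.041 for the same number against -0.021 for other numbers in WT, and 0.021 against -0.017 in KO. Across genotypes it was -0.005 against 0.003. The difference between same and other numbers was not tested. With the number as a replicate block, the counts were 6 for genotype, 6 at T24, 28 for WT time, 23 for T24 against T00 in WT, 28 for KO time, 20 for T24 against T00 in KO and 2 in place of 0 for genotype by time. With time point as a replicate block, the slice genotype count was 4.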

Other observations

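Lists of other cells and states that the liver could hold gave these counts beside the members. Over all genes, 29.8% rose and 31.5% fell from T00 to T24 in WT and 31.7% and 35.8% in KO; in the slices 9.84% climbed in WT, 1.98% passed for a wave in WT and 11.2% in KO, and 4.05% were lower in KO. Of stellate and fibroblast markers, 2 of 9 rose from T00 to T24 in WT and 1 rose and 1 fell in KO; in the slices 4 of 10 climbed in WT, 0 of 10 passed for a 24 h wave in WT and 3 of 9 in KO, and 5 of 9 were lower in KO. Of hypoxia targets, 4 of 8 rose and 1 fell in WT and 4 rose and 2 fell in KO over the short course, and 0 of 8 in WT and 1 of 9 in KO passed for a wave in the slices. Of 3 lymphatic markers, 1 rose and 1 fell in each genotype of the short course, and 0 of 3 passed for a wave in either genotype of the slices. Of 2 platelet genes tested, 1 rose and 1 fell in WT and 1 rose in KO over the short course. Of 5 lymphocyte markers, 1 passed the filter in the short course, where it fell in both genotypes, and 0 did in the slices.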
